A study of Bos taurus with 4 samples.

Results

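Sarcoplasmic calcium handling genes are those that move calcium into the sarcoplasmic reticulum of muscle, hold it there and let it out again. The members were ATP2A1, ATP2A2, SLN, JSRP1, RYR1, RYR2, TRDN and CASQ1, chosen by symbol and followed in every library. Of these 8 genes, 7 matched a name among 21861 features, and TRDN was not analysed here. The study set nuclei of subcutaneous fat from the back (backfat) beside nuclei of intramuscular fat in 2 beef cattle, called steers in the study's design and cows in the sample titles. With 1 library for each depot of each animal there were 4 libraries, and the animals had no treatment. They came from a commercial feedlot, and their diet, age and breed were unknown to the submitters. The assay was 10x Genomics single-nucleus RNA sequencing from the 3′ end of transcripts, which counts unique molecular identifiers (UMIs, 1 per captured RNA molecule) in each nucleus.

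In skeletal muscle a nerve impulse opens the ryanodine receptor of the sarcoplasmic reticulum, and the calcium released starts contraction. The SERCA pumps then return calcium to the store, where calsequestrin binds it. Fast fibres are known for the pump SERCA1 and slow fibres, like the heart and smooth muscle, for SERCA2, while adipocytes have no sarcoplasmic reticulum.

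After filtering, a library held 63 to 6126 nuclei and 105481 to 4006966 UMIs, with a median of 518 to 1100.5 UMIs per nucleus. The intramuscular library of animal 2 was the smallest on both measures, and only 0.0133% of its UMIs were from mitochondrially encoded genes, against 1.24% to 1.65% in the other libraries. Libraries shared at most 2 cell barcodes in any pair. The libraries labelled subcutaneous carried the muscle: 34 skeletal fibre marker genes took 6.35% and 25.5% of their UMIs in animals 1 and 2, against 0.0271% and 0.0465% in those labelled intramuscular. None of the 34 was at 0 UMIs in either subcutaneous library, and 12 and 27 were at 0 in the intramuscular ones. ADIPOQ, the adipocyte hormone adiponectin, was at 51.8 and 3.74 CPM (UMIs of a gene in 1000000 UMIs of the nuclei summed) in the subcutaneous libraries and at 58.9 and 56.9 in the intramuscular ones. Directions between depots therefore rest on the labels, and would be the opposite if depots had been swapped in labelling. Fibre-like nuclei, named from contractile markers, were found in the subcutaneous libraries alone.

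Across whole libraries the 7 measured genes were all higher in both subcutaneous libraries than in either intramuscular one. For RYR2 the excess over the intramuscular library of animal 2 was within counting error. Levels are in CPM, given for animal 1 and then animal 2. ATP2A1, the SERCA1 pump, was at 545 and 3685 in the subcutaneous libraries and at 0.368 and 9.48 in the intramuscular ones, which held 1 UMI each. ATP2A2, the SERCA2 pump, was at 271 and 282 against 48.2 and 56.9. SLN, which encodes sarcolipin, a small peptide that inhibits the SERCA pumps, was at 466 and 4887 against 0 UMIs in both intramuscular libraries. The 2 subcutaneous libraries were thus far apart for ATP2A1 and SLN and close for ATP2A2.

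The release channels and the junction genes were also higher in both subcutaneous libraries. RYR1, the skeletal ryanodine receptor, was at 508 and 1806 CPM in the subcutaneous libraries and at 5.15 and 28.4 in the intramuscular ones. RYR2, the ryanodine receptor known from the heart, was at 27.2 and 14.0 against 2.94 and 9.48. This 9.48 was 1 UMI, with a counting interval of 0.240 to 52.8 CPM that included both subcutaneous levels. The subcutaneous levels of RYR2 were thus not separated from that value beyond counting error. CASQ1, the calsequestrin of skeletal muscle, was at 368 and 1651 against 2.58 and 9.48. JSRP1, a protein of the junction between the reticulum and the surface membrane system, was at 150 and 895 against 0.736 and 9.48. The 9.48 of CASQ1 and that of JSRP1 were also 1 UMI each. RYR2 differed from the others in that animal 1 had the higher of the subcutaneous levels.

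**Figure D1:**
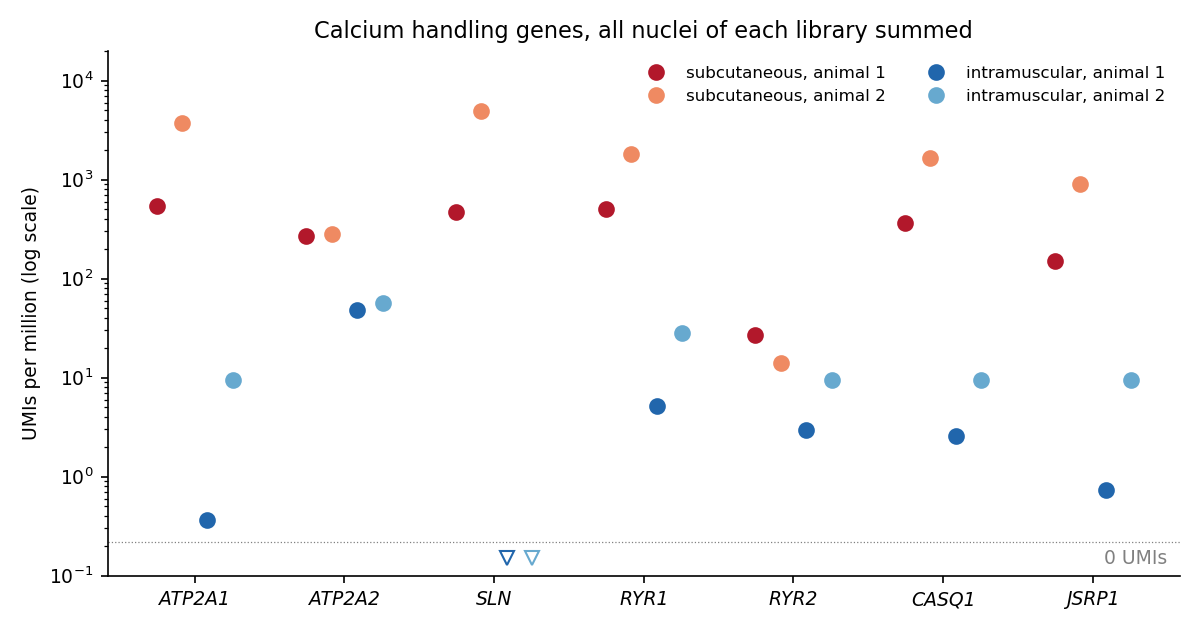
Levels of the 7 calcium handling genes in CPM (log scale) with all nuclei of each library summed, 1 point per library; open triangles mark 0 UMIs. Both subcutaneous points lie above both intramuscular points for each gene, from 27.2 and 14.0 against 2.94 and 9.48 for RYR2 to 3685 against 0.368 at the extremes for ATP2A1. The RYR2 value of 9.48 is 1 UMI, and its counting interval (0.240 to 52.8) includes 27.2 and 14.0.

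Of the 7 genes, 1 passed the test of the depot difference. This was JSRP1, with a log2 fold change of intramuscular over subcutaneous of -9.19 (SE 2.17) and a p of 0.0418 after Benjamini-Hochberg adjustment over all genes in edgeR's quasi-likelihood test. Among all 11143 genes tested, 193 were called lower in the intramuscular libraries, a background of 1.73%. All 7 members had an unadjusted edgeR p under 0.05, as did 7.79% of all genes with a lower level. CASQ1 missed the threshold at an adjusted p of 0.0542 and SLN at 0.0667, both by the same edgeR test. For ATP2A1 the edgeR adjusted p was 0.0880 and for RYR1 it was 0.101. The smallest differences were those of ATP2A2, at a log2 fold change of -3.16 (SE 1.08, edgeR adjusted p = 0.252), and of RYR2, at -2.93 (SE 1.02, edgeR adjusted p = 0.260).

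As pooled ratios of counts, the subcutaneous level of ATP2A2 was 5.76 times the intramuscular one (95% counting interval 4.83 to 6.92). SLN was at least 16.4-fold higher, setting the lower subcutaneous level over what 3 UMIs would give in the smaller intramuscular library. For ATP2A1 the ratio was 4220 with an interval of 1168 to 34853, since only 2 intramuscular UMIs stood against 15386. The median log2 fold change of the 7 genes was -9.004, or -7.57 with SLN set at its bound, beside -0.04 over all genes tested. In sums of whole libraries, fewer fibre nuclei and less RNA per nucleus cannot be told apart. Without the intramuscular library of animal 1, JSRP1 had a log2 fold change of -7.06 and an edgeR adjusted p of 0.141, and 0 of all 10842 genes were called lower. In that fit 4 members had an unadjusted edgeR p under 0.05, beside 14.8% of all genes. With the subcutaneous library of animal 1 left out 5 members passed, beside 3.09% of all genes, and 5 passed without that of animal 2, beside 1.42%. DESeq2, another count test, called 6 of the 7, with RYR2 the exception, beside 2.31% of all genes.

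A wider list of calcium handling genes held 15 called lower in the intramuscular libraries (edgeR adjusted p under 0.05), beside 1.73% of all genes. Of 60 calcium handling genes listed, 59 matched a feature name and 48 could be tested, and 0 passed as higher. The fitted log2 fold change was below 0 in 41 and lay between 0.05 and 1.42 in the other 7, with a median of -2.97, or -1.52 with genes at 0 set at their bounds. The edgeR test gave 24 with an unadjusted p under 0.05 and a lower level, and 0 with a higher one, beside 7.79% of all genes tested at that p. DESeq2 called 20 of 54 lower, beside 2.31% of all genes to which it gave an adjusted p. The 8 with the smallest p included 2 subunits of the muscle voltage sensor, CACNA1S and CACNG1. CACNG1 was at 119 and 482 CPM in the subcutaneous libraries and at 0 UMIs in both intramuscular ones, at least 4.17-fold higher. CACNA1S was at 24.6 and 49.7 against 0 UMIs. PLN, phospholamban, an inhibitor of SERCA2, was at 230 and 254 CPM against 5.52 and 0. S100A1, a calcium-binding regulator of the ryanodine receptor and SERCA, was at 193 and 241 against 3.31 and 9.48. The remaining 4, at 0 UMIs in both intramuscular libraries, were CACNG6, the calcium and calmodulin-dependent kinase gene CAMK2B, and the muscle genes DHRS7C and SMPX. By the bound used for CACNG1, CAMK2B was at least 1.33-fold and SMPX at least 1.51-fold higher. For CACNA1S, CACNG6 and DHRS7C the bound was below 1, at 0.865, 0.556 and 0.587. Their 0 in the smaller intramuscular library thus sets no least difference. Without the intramuscular library of animal 1, 0 of these genes passed, and 25 of the 49 tested had an unadjusted edgeR p under 0.05, beside 14.8% of all genes.

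The levels of ATP2A1, ATP2A2 and SLN differed between fibre types in both animals. Nuclei were clustered without the calcium handling genes, and 3 clusters led by fast contractile genes held 60 subcutaneous nuclei of animal 1 and 2936 of animal 2. The 1 cluster led by slow contractile genes held 55 and 1019. SLN and JSRP1 were among the leading genes of fast clusters, so the following ratios describe the clusters and carry no test. Ratios have 95% counting intervals, which leave out the spread between animals.

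ATP2A2 was the member with a higher level in slow fibre-like nuclei in both animals. In animal 1 it was at 1090 CPM in slow against 93.5 in fast fibre-like nuclei, a slow over fast ratio of 11.7 (5.12 to 32.8). In animal 2 it was at 627 against 109, a ratio of 5.75 (4.84 to 6.85). The mean log2 ratio of fast over slow was -2.91 ± 0.70 (SD, n = 2).

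ATP2A1 went the other way, by sizes that differed between the animals. In animal 1 its level was 3723 CPM in fast and 708 in slow fibre-like nuclei, a fast over slow ratio of 5.26 (3.86 to 7.29). In animal 2 it was 4794 against 3466, a ratio of 1.38 (1.32 to 1.45). The fast fibre levels of the animals thus lay close together and the slow ones 4.90 times apart. SLN followed ATP2A1: 4159 against 694 CPM in animal 1, a ratio of 5.997 (4.41 to 8.31), and 6705 against 4126 in animal 2, a ratio of 1.63 (1.56 to 1.70). The mean log2 ratio was 1.42 ± 1.35 for ATP2A1 and 1.63 ± 1.32 for SLN (SD, n = 2), so that the spread between the animals was close to the size of the mean.

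In the subcutaneous library of animal 2, other nuclei also held the fibre genes. Blood endothelial-like nuclei, which should lack ATP2A1, were at 1351 CPM there and at 192 in animal 1. The part of such RNA in the slow fibre levels was not tested. With fibre nuclei sorted instead by their own myosin UMIs (MYH7 against the fast myosins), the fast over slow ratio of ATP2A1 was 5.74 in animal 1 and 2.25 in animal 2. For ATP2A2 the slow over fast ratio was then 7.03 and 5.60.

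**Figure D2:**
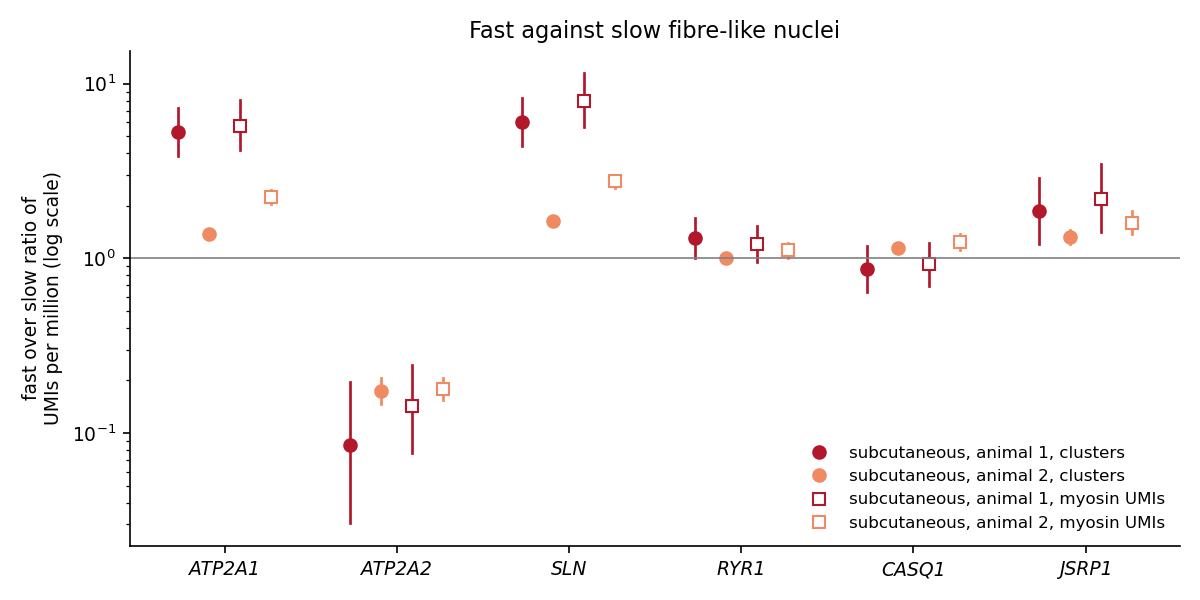
Ratio of the level in fast to that in slow fibre-like nuclei (log scale) for 6 calcium handling genes in the 2 subcutaneous libraries, with 95% counting intervals; filled circles use clusters and open squares the myosin UMIs of each nucleus. ATP2A2 lies below 1 in both animals under both definitions, ATP2A1, SLN and JSRP1 above 1, and RYR1 and CASQ1 close to 1.

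Single nuclei were also sorted by the pump genes they held. In fast fibre-like nuclei, 80.0% and 83.1% of nuclei of animals 1 and 2 held UMIs of ATP2A1 without ATP2A2, and 0% and 0.511% held ATP2A2 without ATP2A1. Slow fibre-like nuclei with ATP2A1 alone made up 12.7% and 62.7%, those with ATP2A2 alone 30.9% and 5.59%, and those with both genes 32.7% and 17.96%. Most slow fibre-like nuclei of animal 2 thus held ATP2A1 without ATP2A2. With each nucleus thinned to 300 UMIs, ATP2A2 was found in 34.5% and 14.1% of slow and in 3.33% and 2.96% of fast fibre-like nuclei, beside 5.61% and 3.94% of blood endothelial-like ones. The unthinned shares were 63.6% and 23.6% in slow, 10.0% and 6.03% in fast and 18.4% and 10.6% in endothelial-like nuclei. Median depths in the same order were 895 and 494, 770 and 515, and 933 and 645.5 UMIs. The ATP2A2 share of fast fibre-like nuclei was below that of endothelial-like ones in both animals. The thinned intervals overlapped, at 0.406% to 11.5% against 2.83% to 9.82% in animal 1. In animal 2 they were 2.38% to 3.64% against 2.27% to 6.32%. Unthinned, they were apart in animal 2 alone. Endothelial-like nuclei of the intramuscular library of animal 1 held 0 ATP2A1 UMIs but ATP2A2 at 33.1 CPM. That class is thus no blank for ATP2A2. The source of the share in fast fibre-like nuclei was not tested, and it is not read as expression there.

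**Figure D3:**
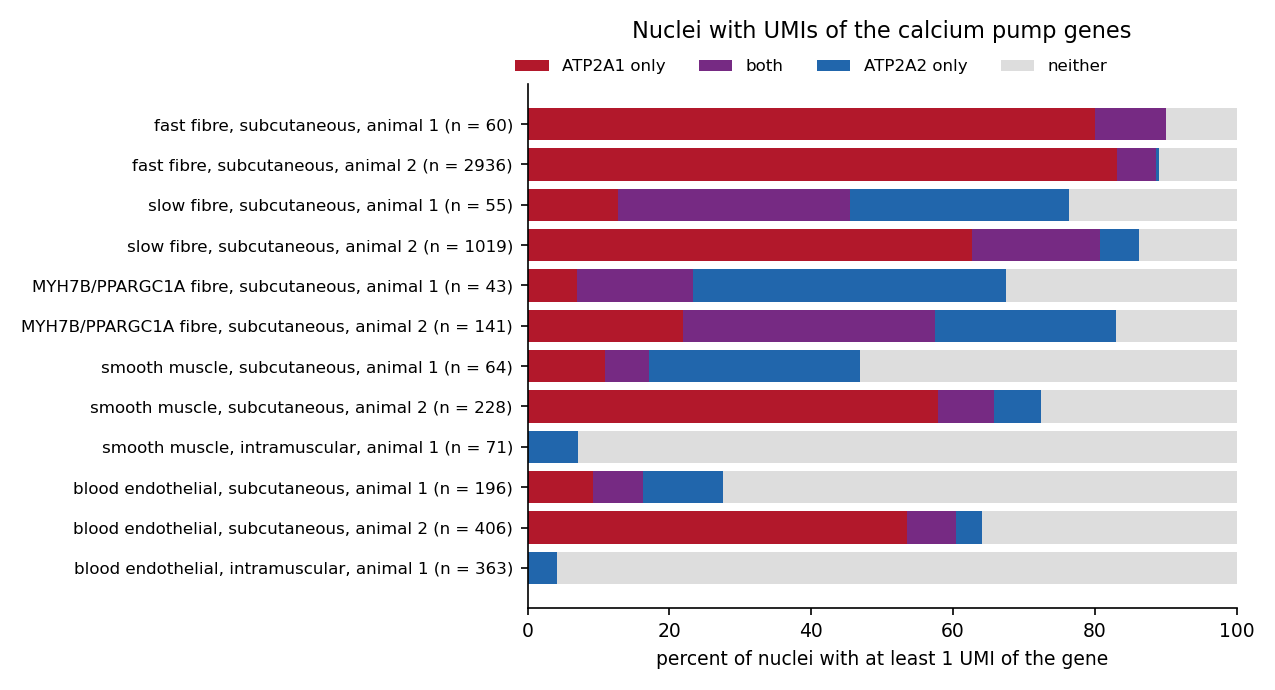
Percent of nuclei with at least 1 UMI of ATP2A1 alone, ATP2A2 alone, both or neither (horizontal axis) in each class and library, with the number of nuclei beside each bar. ATP2A1 alone fills 80.0% and 83.1% of the fast fibre bars, and the share with ATP2A2 alone is highest, at 44.2%, in the MYH7B and PPARGC1A nuclei of animal 1; shares are not corrected for depth.

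The release channel and the calcium store gene differed little between fibre types. RYR1 was at 1978 CPM in fast and 1514 in slow fibre-like nuclei of animal 1, a ratio of 1.31 (1.00 to 1.71). In animal 2 it was at 2000 and 1989, a ratio of 1.01 (0.943 to 1.07). CASQ1 was at 1246 in fast and 1430 in slow fibre-like nuclei of animal 1 and at 1852 and 1617 in those of animal 2. Its ratios of 0.872 (0.642 to 1.18) and 1.15 (1.07 to 1.23) fell on opposite sides of 1.

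JSRP1 was higher in fast fibre-like nuclei of both animals, by less than ATP2A1 in animal 1 and with overlapping ratio intervals in animal 2. It was at 950 against 510 CPM in animal 1, a ratio of 1.86 (1.22 to 2.90). In animal 2 it was at 1203 against 910, a ratio of 1.32 (1.21 to 1.45). RYR2 was close to absent from both fibre types, with 0 UMIs in either class of animal 1 and 4 and 1 UMIs in fast and slow fibre-like nuclei of animal 2.

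Another group of fibre nuclei had the highest ATP2A2 of any class with at least 10 nuclei in the library. This cluster, led by the slow-type myosin gene MYH7B and by PPARGC1A, a coactivator of mitochondrial genes, held 43 and 141 nuclei. ATP2A2 was at 1453 (1088 to 1900) and 2067 (1783 to 2382) CPM in it, and in animal 2 this interval lay above that of slow fibre-like nuclei (567 to 691). In animal 1 the interval overlapped that of slow fibre-like nuclei (860 to 1362). ATP2A1 was at 439 and 1697, SLN at 192 and 2621 and JSRP1 at 54.8 and 337, each lower than in the slow fibre-like nuclei of the same animal. RYR1 stayed near the other fibres at 1864 and 1718 CPM. CASQ1 was at 795 and 1523.

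An unnamed cluster of 66 and 907 subcutaneous nuclei, in which fibre markers took 11.9% and 20.6% of UMIs, split the members in another way. RYR1 was at 1894 and 2399 and CASQ1 at 1308 and 2168 CPM, levels whose intervals lay above those of fast and slow fibre-like nuclei in animal 2 and overlapped them in animal 1. JSRP1 was at 176 and 606 CPM, below both fibre types in both animals. SLN, at 703 and 3420, was below the fast fibre-like level in both animals. In another unnamed cluster, led by NCAM1 and MYH15 and holding 118 nuclei of animal 2, ATP2A1 was at 2813, ATP2A2 at 281 and CASQ1 at 2295 CPM.

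The wider calcium gene list was compared between fibre types in the 23 genes with at least 20 UMIs in the fibre nuclei of each library. In both animals 12 were higher in slow and 6 in fast fibre-like nuclei, shares of 52.2% and 26.1%, beside 41.7% and 21.6% of all 1173 genes with that many UMIs. PLN had the largest difference: 1585 CPM in slow against 93.5 in fast fibre-like nuclei of animal 1, and 628 against 129 in animal 2. The sodium and calcium exchanger gene SLC8A3 was at 127 against 15.6 in animal 1, from 9 and 1 UMIs. In animal 2 it was at 33.0 against 20.7, from 21 and 38 UMIs. Its slow over fast ratio was 8.18 (counting interval 1.13 to 358) in animal 1. In animal 2 it was 1.59 (0.888 to 2.78), an interval that included 1. PLN overlaps CEP85L in the gene table used, and UMIs of overlapping genes can be counted for the wrong gene.

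RYR2 had its highest level in smooth muscle-like nuclei. These formed 1 cluster, with 64 subcutaneous nuclei of animal 1, 228 of animal 2 and 71 intramuscular nuclei of animal 1, named from markers such as MYH11. RYR2 was itself among the leading genes of that cluster, so its level there is a description. It was at 469 (303 to 692) and 312 (228 to 418) CPM in the subcutaneous libraries, a mean of 391 ± 110 (SD, n = 2). In blood endothelial-like nuclei it was at 9.13 and 10.8. Against all fibre-like nuclei the smooth muscle level was 160 times as high in animal 2 (63.8 to 517), and in animal 1 there were 25 UMIs against 0.

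RYR2 UMIs were found in 28.1% and 15.8% of subcutaneous smooth muscle-like nuclei, at median depths of 753.5 and 505 UMIs. In endothelial-like nuclei the shares were 1.53% and 0.985%, at 933 and 645.5 UMIs. Thinned to 300 UMIs, the smooth muscle shares were 20.3% and 10.96%, and the endothelial ones 0% and 0.493%. A finer clustering raised the contrast, since its MYH11-rich nuclei, 44 and 136 in number, held RYR2 at 677 and 423 CPM. The 18 and 34 pericyte-like nuclei it split off in the same libraries held 1 and 2 RYR2 UMIs, or 56.2 (1.42 to 313) and 86.5 (10.5 to 313) CPM. In animal 2 that interval overlapped the one of the MYH11-rich nuclei (300 to 581). The finer clustering also named as fast fibre-like a cluster led by CNN1, ACTA2 and MYH11, with 362 nuclei of animal 2. Fast fibre-like nuclei of animal 2 then held 10 RYR2 UMIs, against 4 in the main clustering.

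ATP2A2 was the other member whose level in smooth muscle-like nuclei came near or above that of all fibre-like nuclei pooled. It was at 581 (395 to 825) and 347 (258 to 458) CPM in the subcutaneous libraries, a mean of 464 ± 165 (SD, n = 2). In endothelial-like nuclei it was at 198 (153 to 252) and 184 (143 to 233). The smooth muscle level was 73.2% (47.9% to 109%) and 113% (82.96% to 150%) of that of all fibre-like nuclei pooled. Neither animal thus separated smooth muscle from the pool beyond counting error. The pool mixes unlike levels. Slow fibre-like nuclei, at 1090 (860 to 1362) and 627 (567 to 691) CPM, lay above smooth muscle in both animals. Fast ones, at 93.5 (34.3 to 203) and 109 (94.5 to 125), lay below it. Among other calcium genes the largest excess over fibre nuclei was that of ATP2B4, a pump of the surface membrane, at 10.7 (2.76 to 60.5) and 53.4 (25.4 to 122) times. Its counts were 10 against 3 UMIs in animal 1 and 30 against 10 in animal 2. ATP2B4 was at 187 and 208 CPM in smooth muscle-like and at a similar 167 and 181 in adipocyte-like nuclei. In endothelial-like nuclei it was at 66.9 and 62.1, so the excess over fibres was not particular to smooth muscle. CAMK2G followed at 5.94 and 3.90 times, CALM2 at 3.06 and 2.87 times and STIM1, the sensor of an emptied calcium store, at 3.57 and 1.84 times. The STIM1 interval in animal 2, 0.924 to 3.34, included 1.

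**Figure D4:**
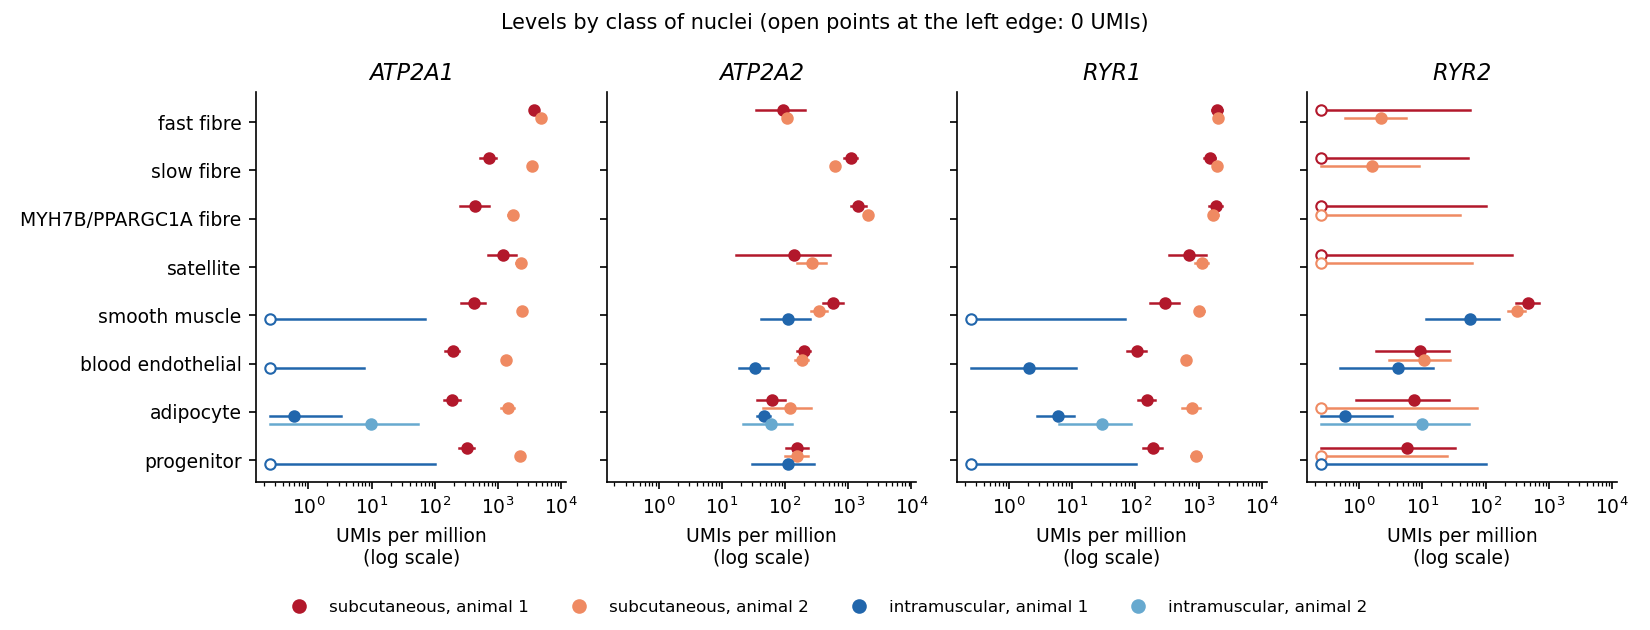
Levels of both calcium pump genes and both ryanodine receptor genes by class of nuclei and library in CPM (log scale), with 95% Poisson intervals for classes of at least 10 nuclei; open points at the left edge mark 0 UMIs. RYR2 stands out in smooth muscle-like nuclei at 469 and 312, ATP2A2 in slow fibre, MYH7B and PPARGC1A fibre and smooth muscle-like nuclei, and ATP2A1 and RYR1 in fibre nuclei.

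The skeletal members also gave UMIs in nuclei that were not fibres. In blood endothelial-like nuclei of animal 2, levels as a percent of those in fibre-like nuclei were 31.0% for ATP2A1, 39.1% for SLN, 31.9% for JSRP1, 31.4% for RYR1 and 34.7% for CASQ1. These 5 lay within a narrow range, while ATP2A2 was at 59.7% (45.9% to 76.5%). In animal 1 the 5 genes lay between 6.04% and 10.8%, and ATP2A2 was at 24.9% (18.2% to 33.7%). Smooth muscle-like nuclei held the 5 genes at 11.9% to 32.1% of the fibre level in animal 1 and at 41.7% to 60.4% in animal 2. Endothelial-like nuclei of the intramuscular library of animal 1 held 0 ATP2A1 UMIs, and ATP2A2 at 33.1 CPM.

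**Figure D5:**
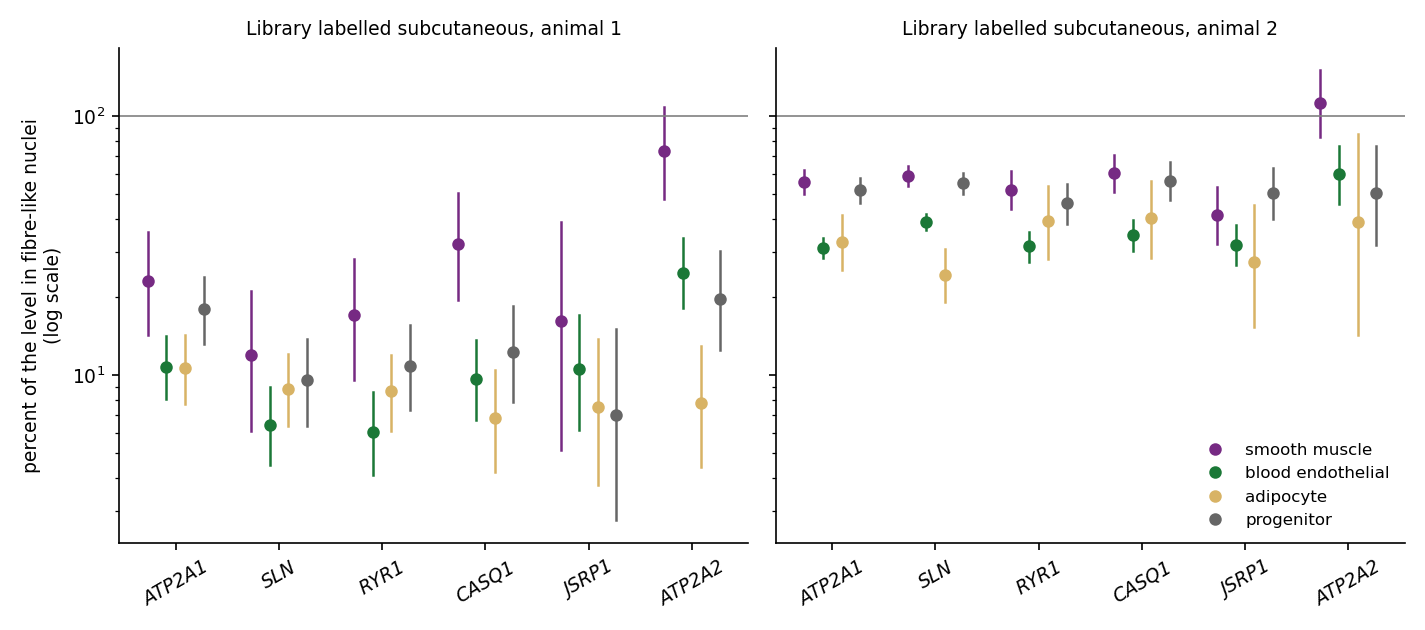
Level of each gene in 4 classes of nuclei as a percent of its level in fibre-like nuclei of the same library (log scale), with 95% counting intervals, for the subcutaneous libraries of animals 1 and 2. In endothelial-like nuclei of animal 2 the 5 skeletal genes lie between 31.0% and 39.1%, and ATP2A2 at 59.7%.

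Between depots, the smooth muscle-like class had 1 intramuscular library beside 2 subcutaneous ones, and the test took the spread of the pair to hold for the single library. CASQ1 was at 394 and 1076 CPM against 0 UMIs, and RYR1 at 300 and 1035 against 0 UMIs. Both passed the test, which rests on that assumption, with log2 fold changes of -9.09 (SE 1.93, edgeR adjusted p = 0.0408) and -8.97 (SE 2.01, edgeR adjusted p = 0.0413), which for genes at 0 depend on the fit's prior count. The background was 2.44% of 1683 genes called lower. The 34 fibre markers took 4.03% and 17.2% of UMIs in the subcutaneous nuclei of this class, with 4 and 1 of them at 0, against 0.0319% in the intramuscular ones, with 30 at 0. Their part in the difference was not tested. RYR2 was at 469 and 312 against 56.2, which was 3 UMIs, with a log2 fold change of -3.03 (SE 0.94, edgeR adjusted p = 0.111). ATP2A2 was at 581 and 347 against 112, a log2 fold change of -2.29 (SE 0.84, edgeR adjusted p = 0.175). The remaining members, ATP2A1, SLN and JSRP1, were at 0 UMIs in the intramuscular nuclei and did not pass.

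These intramuscular nuclei were not like the subcutaneous ones in their markers. MYH11 was at 18.7 CPM in them, against 4799 and 3138, and in the finer clustering all 71 were pericyte-like. ACTA2 was at 75.0 against 2849 and 2527. Differences in this class are therefore between unlike nuclei. With nuclei of at least 500 genes only, 0 of all 1178 genes passed, and the log2 fold changes were -8.21 for CASQ1 and -8.18 for RYR1. In that fit 6 members had an unadjusted edgeR p under 0.05, beside 10.1% of all genes.

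In adipocyte-like nuclei 3 of the 5 members tested were lower in the intramuscular libraries, beside a background of 1.27% of 4483 genes. SLN was at 167 and 1445 CPM against 0 and 0, at least 5.66-fold higher in the subcutaneous libraries (edgeR adjusted p = 0.0166). ATP2A1 was at 189 and 1425 against 0.590 and 9.86 (log2 fold change -8.74, SE 1.66, edgeR adjusted p = 0.0257). CASQ1 was at 83.7 and 723 against 4.13 and 9.86 (-6.13, SE 1.28, edgeR adjusted p = 0.0450). RYR1, at 153 and 783 against 5.90 and 29.6, had an edgeR adjusted p of 0.0851, and 0.00340 with the animal as a block. The 34 fibre markers took 1.66% and 9.08% of UMIs in the subcutaneous nuclei of this class, with 2 at 0 in each library, against 0.0199% and 0.0483% in the intramuscular ones, with 16 and 27 at 0. Their part in these differences was not tested.

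ATP2A2 did not follow the other pump gene in adipocyte-like nuclei. It was at 61.9 and 120 CPM in the subcutaneous libraries and at 46.0 and 59.2 in the intramuscular ones, a log2 fold change of -0.64 (SE 0.75, edgeR adjusted p = 0.999). The pooled subcutaneous over intramuscular ratio was 1.52 (0.912 to 2.43). The intramuscular adipocyte-like nuclei of animal 1 came almost wholly from a different cluster than most of those of the other 3 libraries. RYR2 had 2 or fewer UMIs in adipocyte-like nuclei of each library. Without the subcutaneous library of animal 2, CASQ1 had an edgeR adjusted p of 1.00 while SLN and ATP2A1 passed.

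Across 24 sums of UMIs by library and class, the genes most like each of 3 members were found by Pearson's r of log2(CPM + 10), among 7317 genes. The sums share libraries, depth and free RNA, and the r values are descriptions. ATP2A1 was most like TNNI2, fast skeletal troponin I (r = 0.996), MYBPC2 (0.993) and MYOZ1 (0.993). ATP2A2 was most like PLN (0.870), ATP1B4 (0.869) and ARPP21 (0.868), and RYR2 most like IRAG1 (0.873), RASL11A (0.859) and NDRG4 (0.842). In the gene table used, ATP2A1 overlaps RABEP2, ATP2A2 overlaps ANAPC7 and CASQ1 overlaps a long noncoding RNA gene, so their counts may hold UMIs of those genes. SLN and JSRP1 overlap no listed gene.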

How the data were processed

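The values the authors deposited are unnormalised UMI counts for each gene in each barcode, made with Cell Ranger 6.0.1 per the file headers and on ARS-UCD1.2 per the submitters' processing notes. Whether intronic reads were counted is not given in the sources used here. Nuclei with at least 200 genes and under 10% mitochondrial UMIs were kept. Clusters were made with scanpy 1.11.5 (2000 variable genes without any calcium handling gene, 30 principal components, 15 neighbours, Leiden resolution 1.0) and named, as "-like", from at least 3 markers among 100 leading genes. Scrublet called 12, 0 and 0 doublets in the libraries of 874, 6126 and 1774 nuclei, so it had not worked, and doublets were kept.

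Sums of UMIs over a library, or over a class with at least 10 nuclei in it, were compared between depots in edgeR 4.0.16 (filterByExpr, TMM, quasi-likelihood F test; Benjamini-Hochberg, threshold 0.05), after a test on simulated data. The SE is the absolute log2 fold change over the root of F. Replicate numbers in the titles are the animals, so samples pair across depots; the correlation of their deviations was -0.09. Each depot of an animal gave 1 library, and p-values measure the spread between these libraries only. Intervals are 95% (exact Poisson, exact conditional binomial for ratios) and cover counting error only. A count of 0 allows 3 counts, or 0.749 to 28.4 CPM in a whole library.

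Named genes were every member, the 8 listed calcium genes with the smallest p past the threshold, the 4 with the largest fibre-type ratio, the 4 with the largest smooth muscle excess (at least 20 UMIs) and the 3 most like ATP2A1, ATP2A2 and RYR2. Of these, 2 genes with a large fibre-type ratio are not reported here. The members and lists were chosen with earlier results of these data known. Alternatives were the animal block, DESeq2 1.42.0, other filters, clusterings and library sizes, and each library left out. Gene overlaps came from a table of ARS-UCD2.0, another assembly, so no coordinates are given.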

Additional observations from a re-analysis of the deposited data

How the results depend on the processing

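All 7 members stayed lower in the intramuscular libraries under every alternative run on whole-library sums, but the count that passed moved from its main value of 1. It was 0 with all deposited barcodes, 6 with the DESeq2 test, 5 with no filter on genes and 2 without the doublets called. Over all genes, 163 of 11152, 294 of 12734, 409 of 16594 and 218 of 11131 were called lower, in the same order. The main fit called 193 of 11143. The 2 settings chosen after seeing the data, library sizes recomputed after the gene filter and sums without fibre-like and satellite-like nuclei, each gave 0 members. With recomputed library sizes 164 of all 11143 genes were called lower. Without those nuclei 0 of all 10345 genes were called, so that 0 members says little about the members. All 7 had an unadjusted edgeR p under 0.05 there, beside 606 of all genes with a lower level. Their median log2 fold change was -7.96. Leaving out 1 library gave median log2 fold changes of the members from -9.86 to -6.65. With the animal as a replicate block 1 member passed, beside 192 of all 11143 genes, and JSRP1 had an edgeR adjusted p of 0.0230. In smooth muscle-like nuclei, with 1 intramuscular library, all 7 members stayed lower under each alternative fitted. Their median log2 fold change was -8.98 with no filter on genes and -8.18 with at least 500 genes per nucleus. It was -8.97 with recomputed library sizes. These medians depend on the fit's prior count, since 5 of the 7 members were at 0 UMIs in the intramuscular library. In the main fit the median was -8.97, or -2.41 with those 5 set at their bounds. A replicate block or a left-out library left no residual degrees of freedom there. In adipocyte-like nuclei all members tested stayed lower with 1 library left out. The 3 calls there became 5 with DESeq2, 5 with no filter on genes and 4 with the replicate block. Over all genes, 73 of 7506, 82 of 15135 and 63 of 4483 were called lower, in the same order. The cause of these moves was not tested. With fibre nuclei sorted by myosin UMIs the fast over slow ratio of SLN in animal 2 was 2.76, and with at least 500 genes per nucleus 3.23, against 1.63. At a Leiden resolution of 2.0 that of SLN in animal 1 was 3.71, against 5.997. With calcium genes kept in the clustering the slow over fast ratio of ATP2A2 in animal 2 was 9.27, against 5.75. At a Leiden resolution of 2.0 the smooth muscle-like means were 616 CPM for ATP2A2 and 550 for RYR2, against 464 and 391. In the smallest library, with 105481 UMIs, a count of 0 allows up to 28.4 CPM.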
